A study of Mus musculus with 18 samples.

Results

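The 9 genes described here, Ren1, Agt, Ace, Agtr1a, Agtr1b, Enpep, Nr3c2, Hsd11b2 and Agtrap, encode parts of the renin-angiotensin-aldosterone system in the mouse kidney. They were taken by name from the 78239 genes counted in each library, with earlier results of these data known. RNA was sequenced from a piece of the left kidney of CD-1 mice, an outbred stock, at 6 wk of age. Each of 18 mice gave 1 library. The dams were fed a low protein (LP) diet with 8% protein or a normal protein (NP) diet with 18% protein through pregnancy and lactation, and all offspring ate the NP diet after weaning. There were 5 males and 5 females from LP dams, and 5 males and 3 females from NP dams. All mice carried the wild-type genotype and had received cationic ferritin, a label for glomeruli used in magnetic resonance imaging. Male kidneys were collected 90 min and female kidneys 24 h after the last injection, so that sex and this interval cannot be told apart in any comparison of males with females. CD-1 mice are not inbred, and the labels do not tie mice to litters, so the p-values measure the spread between these mice. The diet was given to the dams, and the authors report fewer litters than mice for the adult cohort. Mice of a group may therefore share a litter, while the p-values and intervals for diet treat each mouse as independent. The libraries held between 14050486 and 23562411 counts on genes. In GRCm39 coordinates, Ren1 (ENSMUSG00000070645.6) spans chr1:133278248-133288063, Agt (ENSMUSG00000031980.11) chr8:125279301-125296716, Ace (ENSMUSG00000020681.15) chr11:105858469-105880790, Agtr1a (ENSMUSG00000049115.16) chr13:30518942-30566850 and Agtr1b (ENSMUSG00000054988.11) chr3:20368609-20421348. Enpep (ENSMUSG00000028024.15) spans chr3:129062824-129126369, Nr3c2 (ENSMUSG00000031618.14) chr8:77625576-77971863, Hsd11b2 (ENSMUSG00000031891.7) chr8:106245369-106250620 and Agtrap (ENSMUSG00000029007.9) chr4:148160185-148172538.

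The renin-angiotensin-aldosterone system raises blood pressure and retains sodium. Renin, secreted by juxtaglomerular cells of the afferent arteriole, cuts angiotensinogen to angiotensin I, and angiotensin-converting enzyme cuts angiotensin I to angiotensin II. Angiotensin II acts through its type 1 receptors on vessels and tubules and on the adrenal cortex, which releases aldosterone. Aldosterone binds the mineralocorticoid receptor in the distal nephron and collecting duct, where 11-beta-hydroxysteroid dehydrogenase type 2 inactivates glucocorticoids that would occupy the same receptor.

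Promoter sequences of 4 members that differed between males and females are shown because these are the genes on which the results turn. Each is the 250 bases before the RefSeq gene start, in the gene's own direction, from the GRCm38.p6 mouse reference and not from CD-1 mice. Of the 9 members, 7 had an entry in the RefSeq promoter table. Capitals mark a match on either strand to TATAAA, the TATA box, to AGAACA, letters found in elements bound by androgen, glucocorticoid and mineralocorticoid receptors, or to AGGTCA, letters found in elements bound by oestrogen and several other nuclear receptors. No match overlapped another. Ren1 lies on the plus strand of chr1:133350424-133350673, the first Ace start on the plus strand of chr11:105967698-105967947, Nr3c2 on the plus strand of chr8:76902080-76902329 and Agtrap on the minus strand of chr4:148088065-148088314.
Ren1: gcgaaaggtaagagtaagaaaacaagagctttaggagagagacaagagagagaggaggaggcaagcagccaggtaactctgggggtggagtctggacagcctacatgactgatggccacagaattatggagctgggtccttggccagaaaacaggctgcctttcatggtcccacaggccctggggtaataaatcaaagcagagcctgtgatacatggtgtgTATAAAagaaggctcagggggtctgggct
Ace: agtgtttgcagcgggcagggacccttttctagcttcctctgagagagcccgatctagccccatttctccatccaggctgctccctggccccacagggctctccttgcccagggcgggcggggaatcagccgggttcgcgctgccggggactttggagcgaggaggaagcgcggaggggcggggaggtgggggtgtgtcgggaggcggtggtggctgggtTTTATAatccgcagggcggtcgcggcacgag
Nr3c2: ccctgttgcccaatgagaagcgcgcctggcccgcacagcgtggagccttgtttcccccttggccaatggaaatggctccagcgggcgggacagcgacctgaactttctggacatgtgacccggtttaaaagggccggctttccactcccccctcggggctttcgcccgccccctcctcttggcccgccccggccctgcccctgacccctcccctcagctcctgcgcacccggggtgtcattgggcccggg
Agtrap: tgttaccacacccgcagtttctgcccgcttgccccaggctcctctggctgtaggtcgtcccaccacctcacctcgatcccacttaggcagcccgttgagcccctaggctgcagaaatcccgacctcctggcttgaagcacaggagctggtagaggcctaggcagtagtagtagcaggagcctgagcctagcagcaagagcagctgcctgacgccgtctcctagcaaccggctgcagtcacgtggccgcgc
TATAAA stood at bases 29 to 24 before the start of Ren1, on the gene's own strand, and at bases 31 to 26 before the first start of Ace, on the opposite strand. It was absent from the Nr3c2 and Agtrap windows. TATAAA was also present before Agt, Agtr1b and Enpep, that is in 5 of the 7 members with an entry, and in 12.4% of the 32851 RefSeq promoter windows of the same length. AGAACA was in 0 of the 7 members and in 16.1% of all windows. AGGTCA was in 1 of the 7 members, before the second start of Ace, and in 14% of all windows. A match or its absence describes these letters in this window only.

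Of the female libraries, 3 (LP female 1, LP female 2 and NP female 3) had been set apart by an earlier clustering of these data. Across the genes tested, Pearson's r of log2 values between LP female 1 or LP female 2 and the other LP females was 0.932 to 0.951. It was 0.982 to 0.989 among those other LP females and 0.982 between LP female 1 and LP female 2. For NP female 3 and the other NP females r was 0.893 and 0.934, against 0.958 between those other NP females. Diet differences of the members in females are therefore also given without these 3 libraries. So are the sex differences of Ren1, Nr3c2, Hsd11b2, Ace, Agtrap and Agtr1a, while levels and within-group spread include all libraries. Counts were made without regard to strand from a library preparation that does not mark strand, and a read that touched exons of more than 1 gene was not counted. Ace shares exons with the antisense long noncoding RNA Gm11651, and the sum of the stranded count columns was 1.45 times the unstranded Ace count, with a range of 1.2 to 1.59 over libraries, so its counts are too low. For the other members this ratio, over all libraries together, was at most 1.01. It cannot show reads lost to a gene on the same strand, such as Gm48161 at Agtr1a, which had 74 counts in all libraries. Some mouse strains carry a further renin gene, Ren2, which the annotation used does not hold, and reads from such a copy could not be told apart from Ren1. Markers of the adrenal cortex, the source of aldosterone, were near absent. The summed level of 6 adrenal cortex genes ranged from 0.995 to 4.3 CPM over all libraries, where CPM are counts divided by the library total and scaled by the trimmed mean of M-values (TMM), and the enzymes of the last steps of corticosterone and aldosterone synthesis, Cyp11b1 and Cyp11b2, had 0 counts in every library.

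Levels were compared between members as CPM divided by the length of the canonical transcript in kb. Hsd11b2 had the highest mean level, at 90.3 ± 33.5 CPM per kb (SD, n = 18). Ace followed at 63.0 ± 26.1, Ren1 at 58.2 ± 24.8 and Agtrap at 47.3 ± 12.1 CPM per kb. Enpep, the aminopeptidase A that removes the first residue of angiotensin II, reached 26.5 ± 5.64 CPM per kb. The type 1a receptor gene Agtr1a reached 15.95 ± 2.80 and Agt 11.3 ± 3.29 CPM per kb. Nr3c2, the mineralocorticoid receptor, reached 2.23 ± 0.739 CPM per kb. The ranges over libraries overlapped between each of these neighbours from Hsd11b2 down to Agt, and only the range of Nr3c2 lay wholly below that of Agt. Agtr1b, the second type 1 receptor gene of rodents, had 8 counts in all 18 libraries together. Its coding sequence is nearly the same as that of Agtr1a, so the division of reads between these receptors is uncertain. Since its counts are too low by the ratio given above, 1.45, the place of Ace against Hsd11b2 is uncertain. When all annotated exons were used in place of the canonical transcript, Agt at 8.10 ± 2.36 stood above Agtr1a at 7.90 ± 1.39 CPM per kb.

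The order also depended on sex. In males, Ace had the highest level at 82.9 ± 12.3 CPM per kb (SD, n = 10), above Hsd11b2 at 67.2 ± 12.5, Agtrap at 56.5 ± 7.41 and Ren1 at 42.8 ± 12.4. In females, Hsd11b2 had the highest level at 119.2 ± 28.4 CPM per kb (SD, n = 8), above Ren1 at 77.5 ± 23.1, Ace at 38.1 ± 13.8 and Agtrap at 35.9 ± 4.12. Enpep, Agtr1a and Agt kept the same order in each sex, from 25.9 CPM per kb for Enpep to 11.1 for Agt in males and from 27.3 to 11.5 CPM per kb in females.

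**Figure D1:**
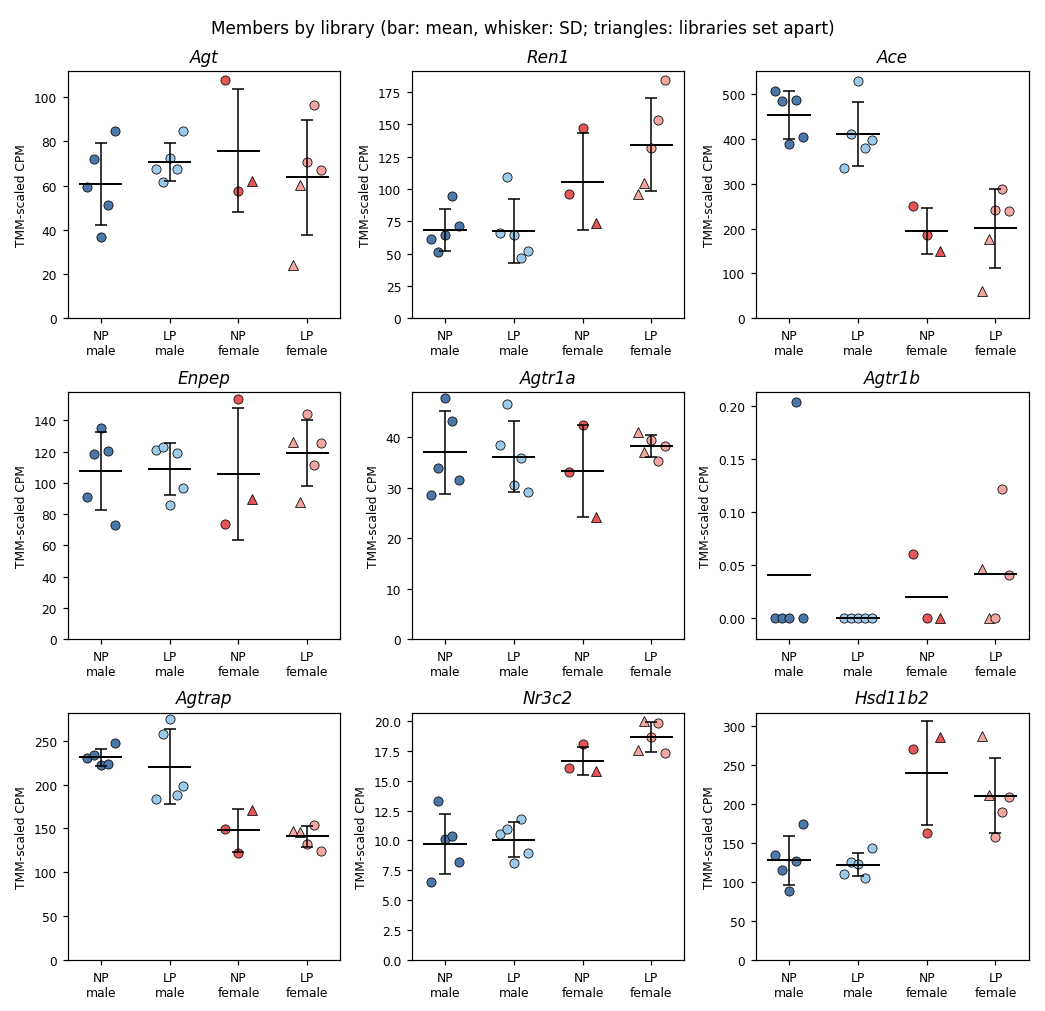
TMM-scaled CPM (vertical axes) of the 9 members in each of 18 libraries by group, with the group mean as a bar and the SD as a whisker (no whisker where the SD exceeds the mean, for Agtr1b), and triangles for the 3 libraries set apart. Male and female libraries separate for Ace, Nr3c2 and Agtrap, while LP and NP libraries of the same sex overlap for every member. Agtr1b is near 0 throughout.

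The comparison of LP with NP offspring asks whether maternal protein restriction left a difference in these genes in the adult kidney. Of the 8 members that reached 10 counts in each library of a comparison, 0 were called in males and 0 in females at an adjusted p under 0.05 (edgeR quasi-likelihood test, Benjamini-Hochberg adjustment over all genes tested). The background was 5 of 13181 genes, or 0.0379%, in males and 0 of 13510 genes, or 0.0%, in females, while 502 and 564 genes had an unadjusted p under 0.05. The DESeq2 Wald test called 19 genes in males and 9 in females, of which 0 were members.

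Ren1 in males was at 66.2, 109.5, 64.8, 46.5 and 51.7 CPM in LP mice and at 61.4, 51.3, 64.5, 94.5 and 71.2 CPM in NP mice. The groups overlapped over nearly their whole ranges, and the log2 fold change of LP over NP was -0.01 (SE 0.22, 95% interval -0.49 to 0.47). Ren1 in females was at 96.3, 104.7, 131.8, 153.0 and 184.2 CPM in LP mice and at 96.1, 146.9 and 74.1 CPM in NP mice. The LP mean was the higher, but 1 NP female exceeded 3 of the 5 LP females, and the log2 fold change was 0.35 (SE 0.29, 95% interval -0.30 to 0.99, exact permutation p = 0.286, two-sided). Without the 3 libraries set apart, the value was 0.37 (adjusted p = 0.972), which was not called either.

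Angiotensinogen, the substrate, was at 67.4, 61.6, 72.5, 67.5 and 84.7 CPM in LP males and at 59.2, 71.98, 36.7, 51.4 and 84.7 CPM in NP males, with a log2 fold change of 0.23 (SE 0.19). In females Agt was at 24.1, 60.2, 70.7, 96.4 and 67.1 CPM in LP mice and at 107.7, 57.5 and 61.9 CPM in NP mice, with a log2 fold change of -0.24 (SE 0.38). The lowest Agt value of all 18 libraries was that of LP female 1. Ace in males was at 335.5, 410.0, 527.8, 379.1 and 397.8 CPM in LP mice and at 506.5, 483.1, 387.8, 486.8 and 404.1 CPM in NP mice. The highest Ace library was an LP male, and the log2 fold change was -0.14 (SE 0.13, 95% interval -0.41 to 0.14). In females Ace was at 60.5, 176.5, 241.1, 288.5 and 238.1 CPM in LP mice and at 249.4, 184.6 and 149.0 CPM in NP mice, with a log2 fold change of 0.06 (SE 0.42, 95% interval -0.89 to 1.00).

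Nr3c2 in females had the smallest exact permutation p for diet. It was at 17.6, 20.0, 18.6, 19.8 and 17.3 CPM in LP females and at 16.1, 18.04 and 15.9 CPM in NP females. All 5 LP values exceeded 2 of the 3 NP values, as they did for Ren1 and Agtr1a in females, but the log2 fold change was 0.17 (SE 0.14, 95% interval -0.14 to 0.49), with an exact permutation p of 0.0893 where the smallest p that 5 against 3 allows is 0.0179. In males Nr3c2 had a log2 fold change of 0.06 (SE 0.19). The other members, Enpep, Agtr1a, Hsd11b2 and Agtrap, had log2 fold changes between -0.06 and 0.03 in males and between -0.17 and 0.20 in females. The 95% intervals over the 8 members reached at most 0.63 in males and 1.10 in females on the log2 scale in either direction, so larger diet differences fall outside them. These intervals treat each mouse as independent and may be too narrow if littermates are alike. Without the 3 libraries set apart, the values in females were -0.08 for Agt, 0.24 for Ace, 0.0036 for Agtr1a, 0.17 for Enpep, 0.13 for Nr3c2, -0.22 for Hsd11b2 and 0.02 for Agtrap, and none was called. With the medulla marker list held constant, Ace in females had a log2 fold change of 0.84 and Ren1 of 0.78, and neither was called (adjusted p = 0.461 for each). No gene of the 16 marker lists was called for diet in either sex either. The smallest exact permutation p over the 8 members in males was 0.294, where 5 against 5 allows 0.00794.

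Whether the diet difference itself differed between females and males was tested as an interaction over all 18 libraries. Of the 8 members, 0 were called, against a background of 2 of 12665 genes, or 0.0158%, with 511 genes at an unadjusted p under 0.05. The interaction estimates, females minus males, ranged from -0.47 (SE 0.43) for Agt to 0.36 (SE 0.38) for Ren1 on the log2 scale.

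**Figure D2:**
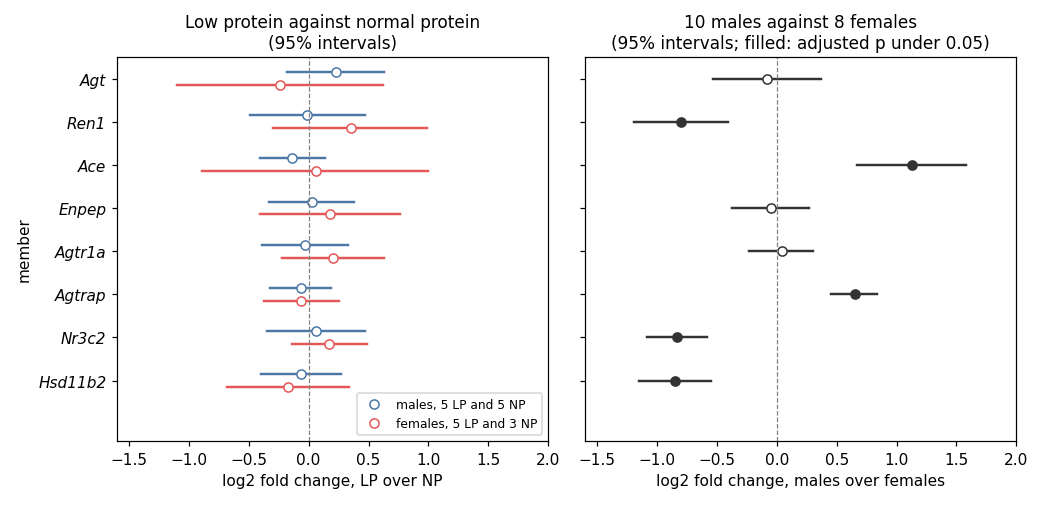
Log2 fold changes (horizontal axes) with 95% intervals for the 8 members tested, for LP over NP in males and in females (left) and for males over females (right), with filled points at an adjusted p under 0.05. All 16 diet intervals on the left include 0, while 5 of the 8 intervals on the right exclude it.

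Males and females differed in 5 of the 8 members tested, with 3 higher in females and 2 higher in males. The comparison averaged the difference over both diets and used all 18 libraries. Differences between males and females were common across the genome, since 38.7% of 12665 genes were called, 18.2% higher in males and 20.4% higher in females, and the share of members called is to be read against that. In a bulk sample, fewer cells of a type and less RNA per cell cannot be told apart. The median log2 difference of all genes tested was -0.06.

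Renin mRNA was higher in females. Ren1 ranged from 46.5 to 109.5 CPM in males, with a median of 64.7, and from 74.1 to 184.2 CPM in females, with a median of 118.3. Of the 10 males, 8 lay below every female, and only the highest LP male and the highest NP male entered the female range. The difference, males over females, was -0.80 on the log2 scale (SE 0.19, 1.75-fold higher in females, edgeR adjusted p = 0.00247, exact permutation p = 0.00128). It was -0.97 in LP mice alone (adjusted p = 0.0168) and -0.61 in NP mice alone (adjusted p = 0.12), so that the call was lost in NP mice, of which 3 were females. Without the 3 libraries set apart it was -1.02 (adjusted p = 0.000597).

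The mineralocorticoid receptor and the enzyme that guards it were higher in females. Nr3c2 ranged from 6.56 to 13.3 CPM in males, with a median of 10.3, and from 15.9 to 20.0 CPM in females, with a median of 17.8, without overlap. Its difference was -0.83 on the log2 scale (SE 0.12, 1.78-fold higher in females, edgeR adjusted p = 3.26e-05), and -0.85 without the 3 libraries set apart. Hsd11b2 ranged from 88.5 to 174.4 CPM in males, with a median of 124.9, and from 157.2 to 286.8 CPM in females, with a median of 209.8. NP male 5 alone among the males lay inside the female range, and the difference was -0.85 (SE 0.14, 1.80-fold higher in females, edgeR adjusted p = 0.000158). The 3 highest Hsd11b2 values were those of LP female 1, NP female 3 and NP female 1, and without the 3 libraries set apart the difference was -0.68 (adjusted p = 0.0021).

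Angiotensin-converting enzyme and the receptor-associated protein were higher in males. Ace ranged from 335.5 to 527.8 CPM in males, with a median of 407.0, and from 60.5 to 288.5 CPM in females, with a median of 211.3, without overlap. Its difference was 1.13 on the log2 scale (SE 0.22, 2.18-fold higher in males, edgeR adjusted p = 0.000598). With reads from the stranded count columns it was 1.15 (adjusted p = 0.00102). LP female 1 had by far the lowest Ace value, and without the 3 libraries set apart the difference was 0.87 (adjusted p = 5.58e-05). Agtrap, which encodes a protein that binds the type 1 receptor and promotes its internalisation, ranged from 183.1 to 274.4 CPM in males, with a median of 226.8, and from 122.0 to 171.3 CPM in females, with a median of 146.4. These ranges did not overlap, and the difference was 0.65 (SE 0.09, 1.57-fold higher in males, edgeR adjusted p = 4.05e-05), and 0.73 without the 3 libraries set apart. Ace, Agtrap and Nr3c2 were thus the 3 of 8 members whose male and female libraries did not overlap, a pattern seen in 8.25% of all genes tested. For Ace and Agtrap the exact permutation p was 7.09e-05, the smallest that exchanging sex within each diet allows, and for Nr3c2 and Hsd11b2 it was 0.000142.

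Agt, Agtr1a and Enpep were not called between males and females. Agt was at 65.8 ± 14.6 CPM in males and 68.2 ± 25.4 CPM in females (SD), with a difference of -0.08 on the log2 scale (95% interval -0.53 to 0.37). Agtr1a was at 36.6 ± 7.18 and 36.3 ± 5.73 CPM, with a difference of 0.04 (95% interval -0.23 to 0.30). Enpep was at 108.4 ± 20.1 and 114.1 ± 28.5 CPM, with a difference of -0.05 (95% interval -0.37 to 0.27). The sign of each of these 3 differences changed under some alternative, and 2 of them were called once a marker list was held constant. With the proximal tubule S1-S2 list as a covariate Enpep had a difference of -0.21 (adjusted p = 0.023), and with the S3 list Agt had a difference of -0.38 (adjusted p = 0.0444). Of the 6 S1-S2 markers 2 were themselves higher in males, Slc22a6 by 2.13, and 0 lower, and of the 4 S3 markers 2 were higher and 2 lower. Such a list takes up part of the sex difference, so these 2 calls cannot be read as segment content held constant.

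**Figure D3:**
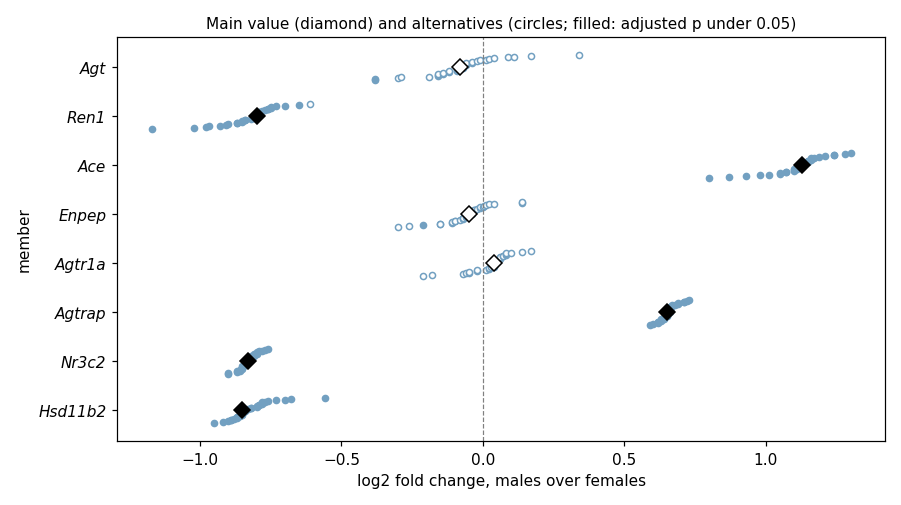
Log2 fold change of males over females (horizontal axis) for the 8 members tested, with the value reported as a diamond and each alternative or left-out library as a circle, filled where the adjusted p was under 0.05. Ren1, Nr3c2 and Hsd11b2 stay below 0 and Ace and Agtrap above 0 throughout, and the only open circle among these 5 is Ren1 at -0.61 in NP mice alone.

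Cell type markers moved with sex as well, and their part in the member differences was not tested beyond the fits with a list as a covariate. Where a list itself differs between males and females, such a fit cannot separate the list from sex. All 4 markers of the distal convoluted tubule were higher in females, with a summed level of 604 to 1120 CPM in males and 1170 to 1820 CPM in females. All 5 intercalated cell markers were higher in females (137 to 185 against 169 to 301 CPM), as were 2 of 4 tested principal cell markers (298 to 890 against 392 to 885 CPM). These segments hold most of the mineralocorticoid receptor and Hsd11b2 of the kidney. With the principal cell list held constant, Hsd11b2 had a difference of -0.56 (adjusted p = 0.0199), Nr3c2 of -0.86 and Ren1 of -1.17. All 5 podocyte markers were higher in females (161 to 262 against 245 to 516 CPM), while 0 of 3 tested smooth muscle and mesangial markers were called (66.6 to 204 against 56.6 to 176 CPM). The S3 segment of the proximal tubule carries Ace on its brush border, and of its 4 markers 2 were higher and 2 lower in males, with a summed level of 6120 to 9500 CPM in males and 2250 to 4810 CPM in females. With the S3 list held constant the Ace difference was 0.80 (adjusted p = 1.91e-05). No marker of these lists was at 0 in every library of a group.

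The members also varied within groups. Residuals of log2(CPM + 1) from the 4 group means were compared with the mean residual of each marker list over 18 libraries, as a description, since all values of a library share its depth, scaling and piece of tissue. Ace followed the S3 list (Pearson's r 0.953) and Enpep the S1-S2 list (0.902). LP female 1 was the lowest of all libraries both for Ace, at 5.94, and for the S3 list, at 7.54 on this log2 scale. The correlations with lists were not computed without that library or within each sex. Agt followed the thick ascending limb list (0.894) and the S3 list (0.854). Hsd11b2 rose and fell with the principal cell list (0.64) and against the S1-S2 list (-0.723). Agtr1a was nearest to the endothelial list (0.778). The summed medulla markers ranged from 355 to 1190 CPM in males and from 563 to 1170 CPM in females. Coefficients with the medulla list ranged from -0.558 for Agtr1a to 0.654 for Agt. Ren1, Nr3c2 and Agtrap stayed between -0.646 and 0.609 for every list. For Nr3c2 the coefficient was -0.081 with the distal convoluted tubule list, -0.18 with the intercalated cell list and -0.183 with the principal cell list. Its highest was 0.593, with the endothelial list. Among LP females the coefficient of variation reached 43.8% for Ace and 40.9% for Agt, for each of which LP female 1 was the lowest library, and it was 5.71% for Agtr1a.

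**Figure D4:**
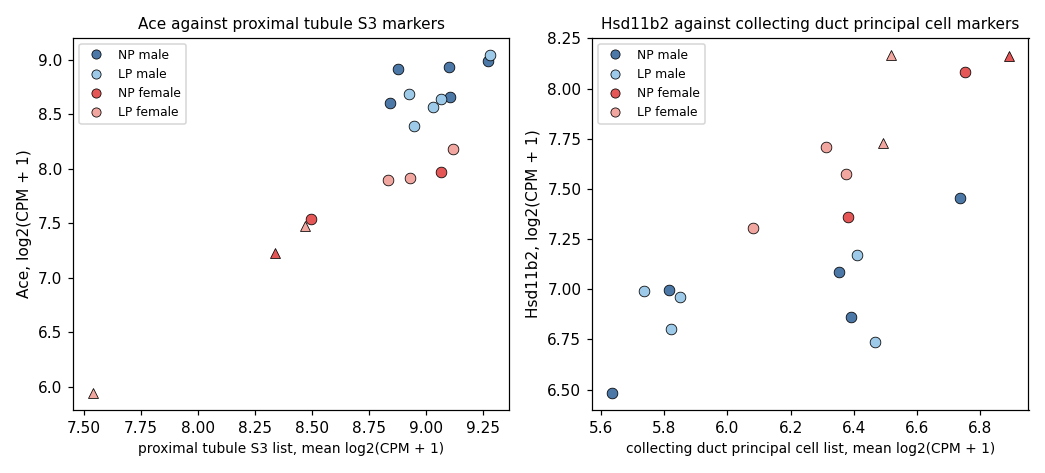
Log2(CPM + 1) of Ace against the mean of 4 proximal tubule S3 markers (left) and of Hsd11b2 against the mean of 4 principal cell markers (right), with 1 point per library, coloured by group, and triangles for the 3 libraries set apart. LP female 1 is the lowest for both Ace and its list, and at a like list level the males lie above the females for Ace and mostly below them for Hsd11b2.

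The 28 pairs of members gave 0 correlations of residuals that passed the adjustment over pairs, in which the lowest adjusted permutation p was 0.118 for Pearson's r and 0.078 for Spearman's rho. Enpep and Hsd11b2 had r = -0.718 (permutation p = 0.00881) and rho = -0.725 (permutation p = 0.00557), with r = -0.635 after the 2 libraries farthest from the Enpep median were left out, -0.827 within males and -0.631 within females. Agt and Ace had r = 0.814 (permutation p = 0.00683) and rho = 0.657 (permutation p = 0.0167), but r was 0.174 within males and 0.961 within females, and 0.581 after the 2 libraries farthest from the Agt median were left out. Of 12665 genes, those whose residuals were most like a member were Serpini1 (r 0.808) and Degs1 (0.807) for Ren1, Tmc4 (0.917) and Kng2 (0.914) for Agt, Epb41l4b (0.964) and C8a (0.957) for Ace, and Mpeg1 (0.884) and Rac1 (0.874) for Agtr1a. For Enpep they were Ralgapa2 and Slc5a12 (0.945 for each), for Nr3c2 Cd53 (0.862) and Plek (0.858), for Hsd11b2 Mob2 (0.924) and Gemin7 (0.921), and for Agtrap Yaf2 (0.908) and Tmem53 (0.892).

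Other genes of the same pathways were taken from 6 lists of 49 genes in all. For diet, 0 of 38 tested in males, 0 of 36 in females and 0 of 36 for the interaction were called. Between males and females, 4 of 36 were higher in males and 14 were higher in females, where 18.2% and 20.4% of all genes tested were called in these directions.

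Among 9 tested enzymes that process angiotensins, Anpep, Dpp3 and Nln were higher in males and Mme was higher in females. Mme, neprilysin, which makes angiotensin-(1-7) and degrades natriuretic peptides, ranged from 120 to 178 CPM in males and 198 to 554 CPM in females, with a difference of -1.47 on the log2 scale (SE 0.15, 2.77-fold higher in females, edgeR adjusted p = 8.33e-07). Dpp3, a dipeptidyl peptidase that cleaves angiotensin II, was higher in males by 0.68 (SE 0.08, adjusted p = 7.01e-06). Nln, neurolysin, was higher in males by 0.56 (SE 0.08, adjusted p = 3.26e-05). The direction was therefore mixed within this list, as it was among the members.

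Of 8 tested genes of renin cells and renin release, 4 were higher in females and 0 in males. They were Adcy6, Gja5, Gja4 and Adrb1. Adcy6, an adenylyl cyclase, differed by -0.62 (SE 0.12, adjusted p = 0.000539). Gja5, which encodes connexin 40 of the juxtaglomerular cells, differed by -0.74 (SE 0.18, adjusted p = 0.00362) and Adrb1, the beta-1 adrenergic receptor that drives renin release, by -0.67 (SE 0.19, adjusted p = 0.008). Gja5 and Adrb1 were low, at 3.24 and 2.26 CPM in males and 5.25 and 3.51 CPM in females. In LP mice alone Gja5 had a difference of -0.33 (adjusted p = 0.286) and Adrb1 of -0.32 (adjusted p = 0.419). With the principal cell list held constant these were -0.44 (adjusted p = 0.134) and -0.56 (adjusted p = 0.117), and without the 3 libraries set apart Adrb1 had one of -0.40 (adjusted p = 0.0981). Over 35 alternatives and left-out libraries, the adjusted p was under 0.05 in 31 for Gja5 and in 30 for Adrb1.

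Of 16 tested genes of the mineralocorticoid response and distal sodium transport, 9 were higher in females and 0 in males. They were Sgk1, Per1, Slc12a3, Wnk4, Klhl3, Kcnj1 and the 3 subunit genes of the epithelial sodium channel, Scnn1a, Scnn1b and Scnn1g. Kcnj1, the ROMK potassium channel, differed by -0.74 (SE 0.09, adjusted p = 1.01e-05), Scnn1b by -0.82 (SE 0.11, adjusted p = 1.2e-05) and the kinase gene Wnk4 by -0.80 (SE 0.11, adjusted p = 2.6e-05). Scnn1g and Slc12a3 also belong to the principal cell and distal convoluted tubule marker lists above, and Sgk1 and Per1 respond to glucocorticoids as well as to aldosterone. The summed level of 8 glucocorticoid response genes ranged from 673 to 1070 CPM in males and from 318 to 1790 CPM in females, with LP female 1 the lowest. With that list held constant, Kcnj1 had a difference of -0.73 and Scnn1b of -0.82. Of the 7 glucocorticoid response genes tested, 3 were higher in females: Per1, Sgk1 and Mt1, the last with a difference of -0.79 (edgeR adjusted p = 0.0239). The other 4, Tsc22d3, Zbtb16, Fkbp5 and Cdkn1a, were not called. Because genes of this list differed between males and females, the fits with it cannot separate the list from sex.

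Among the genes tested in these lists, Hsd11b1 had the largest difference. Hsd11b1, which regenerates active glucocorticoid where Hsd11b2 inactivates it, ranged from 94.5 to 583 CPM in males, with a median of 326, and from 12.5 to 57.8 CPM in females, with a median of 33.5. The difference was 3.23 on the log2 scale (SE 0.37, 9.41-fold higher in males, edgeR adjusted p = 3.56e-06), opposite in direction to that of Hsd11b2. Mas1, the receptor for angiotensin-(1-7), had fewer than 10 counts in some female libraries and so was not among the genes tested, and it is named after its values were seen. It ranged from 12.5 to 40.9 CPM in males, with a median of 22.5, and from 0.296 to 1.24 CPM in females, with a median of 0.772. The males held 3719 counts in 10 libraries and the females 112 counts in 8, and no male library overlapped a female one. Mas1 lies on the minus strand of chr17:13054861-13087035 in GRCm39 and overlaps the antisense noncoding RNA Airn, which was also more abundant in males, at a mean of 10.8 CPM against 2.28 CPM in females. The annotated exons of Mas1 and Airn do not coincide, and the sum of the stranded columns was 1.0 times the unstranded Mas1 count in every library. Because strand was not marked, reads from unspliced Airn over a Mas1 exon could not be told apart from Mas1. In males, where Mas1 was tested for diet, the difference was -0.34 (SE 0.30) and was not called. The other 3 receptor genes of its list were Atp6ap2, the prorenin receptor, which had a difference of -0.15 between males and females (adjusted p = 0.125), and Agtr2 and Mrgprd, with 41 and 8 counts in all libraries.

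**Figure D5:**
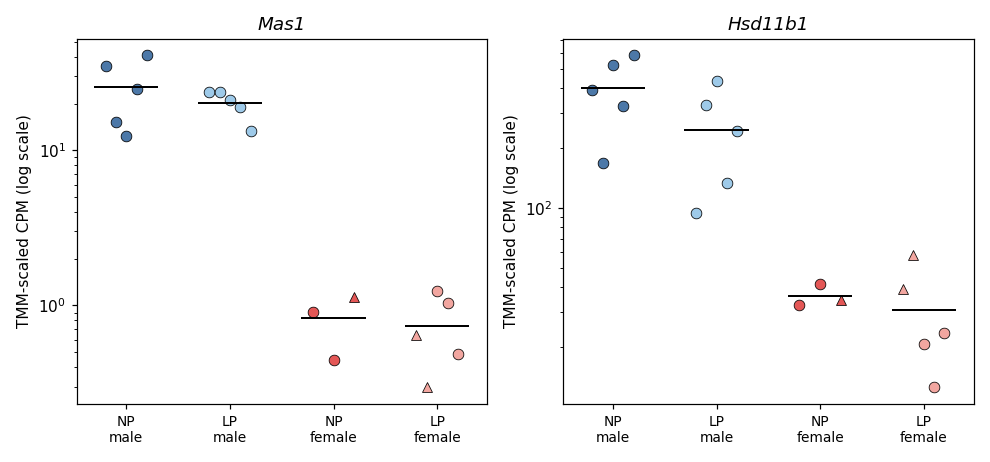
TMM-scaled CPM on a log axis (vertical) of Mas1 (left) and Hsd11b1 (right) in each of 18 libraries by group, with the group mean as a bar and triangles for the 3 libraries set apart. Every male library lies above every female library for both genes, and LP and NP libraries of the same sex overlap.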

How the data were processed

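Kidney tissue of 18 mice was perfused with saline and stored in RNAlater, and poly(A) RNA was sequenced from a non-directional library for each mouse. According to the methods, the authors aligned the reads with STAR to GRCm39 with the GENCODE vM36 annotation, and the deposited files hold raw gene counts for each library without normalisation, in an unstranded and 2 stranded columns. STAR's version is not given in the sources used here. Between 28.6% and 36.1% of the reads were not assigned to a gene and were left out. This share was 28.64% to 30.76% in male and 30.47% to 36.09% in female libraries, so it differed with sex, and NP female 3 had the highest.

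Gene names came from GENCODE vM39, which named 78168 of 78239 genes. The unstranded counts were fitted with edgeR 4.0.16 (R 4.3.3) by TMM normalisation and the quasi-likelihood test, over genes for which each library of the comparison held 10 counts or more. Diet was tested within each sex, the interaction and the sex difference over 4 groups. A gene was called at a Benjamini-Hochberg adjusted p under 0.05. All adjusted p-values are from edgeR unless another tool is named. The script was checked on simulated counts. These were drawn independently for each library, so the check does not cover shared litters, libraries set apart or differences between pieces of tissue. Exact two-sided permutation tests used log2(CPM + 1), with sex exchanged within diet. Promoter sequences were RefSeq's. Alternatives used DESeq2 1.42.0, limma 3.58.1 (voom), other filters, normalisations, covariates and left-out libraries. Sums of the strand columns and the covariates other than medulla were chosen after seeing the data.

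The members and gene lists were chosen with earlier results of these data known. Of the pathway lists, the genes called for diet or interaction and the 3 with the smallest adjusted p between sexes were to be named, together with all members and, for each member, the 2 genes with the most similar residuals over 18 libraries. Replicate numbers do not pair the mice in the labels. Of the pathway lists as first drawn up, 1 gene was left out of the lists and counts and is not reported here.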

Additional observations from a re-analysis of the deposited data

Results flagged for a closer look

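Agtr1b stood at 0.203 CPM in NP male 4, far from the 4 other NP males, which were all at 0 CPM. This value is 3 counts. In the 26 groups checked in this way, chance alone sets a library this far apart in about 1 of 20 groups where values are normally distributed. That rate does not hold for Agtr1b, since any count above 0 is set apart when the 4 other libraries are at 0.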

How the results depend on the processing

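The counts of members called, 0 for diet in each sex, 0 for the interaction and 5 for sex, stayed at 0 for diet and the interaction and between 4 and 6 for sex in all 49 other settings and all 54 fits without 1 library. No called difference changed direction, and of 554 single-gene values in other settings 12 lost the call and 2 gained it. Those that lost it were Ren1 in NP mice, Nln with a 1.5-fold minimum and, among the renin release genes, Gja5, Adrb1 and Adcy6 (-0.55 in NP mice, adjusted p = 0.0505). Differences that were not called and changed sign are given on the log2 scale. In males, LP over NP, limma-voom gave -0.09 for Enpep, -0.02 for Nr3c2 and 0.11 for Hsd11b2. In females it gave -0.01 for Ace, the replicate block -0.44 for Ace, the medulla covariate 0.49 for Agt and, with no change of sign, 0.84 for Ace, and the fit without the 3 libraries set apart 0.02 for Agtrap. The Agtrap interaction was -0.06 with voom, -0.01 with the medulla covariate and -0.0022 with the strand columns. Between sexes Agt was 0.34 (medulla covariate), 0.11 (principal cell), 0.01 (S1-S2), 0.04 (glucocorticoid) and 0.17 (LP mice only). Agtr1a was -0.18 (medulla), -0.21 (principal cell), -0.05 (S1-S2 and without the 3 libraries) and -0.07 (LP mice only). Enpep was 0.01 (no filter), 0.14 (voom), 0.02 (S3) and 0.04 (NP mice only). The cause was not tested.

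Without 1 library at a time, LP over NP in males ranged from -0.25 to 0.13 for Ren1, -0.14 to 0.08 for Agtr1a, -0.09 to 0.12 for Enpep, -0.05 to 0.20 for Nr3c2 and -0.17 to 0.07 for Hsd11b2. In females it ranged from -0.43 to 0.12 for Agt, -0.10 to 0.29 for Ace, -0.01 to 0.58 for Enpep and -0.16 to 0.06 for Agtrap. The interaction ranged from -0.06 to 0.52 for Enpep, -0.03 to 0.21 for Nr3c2, -0.33 to 0.02 for Hsd11b2 and -0.12 to 0.11 for Agtrap. The sex difference ranged from -0.19 to 0.09 for Agt, -0.06 to 0.14 for Agtr1a and -0.15 to 0.14 for Enpep.

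With the replicate number as a block, 0 members were called for diet in either sex or for the interaction, and 5 for sex. Same-numbered mice had correlated deviations of median -0.152 in males and -0.439 in females, so the numbers were not taken as pairs. Over all genes, calls for diet in males numbered 5, against 19 with DESeq2, 9 with no filter, 2 with the block and 1 in a model of all 4 groups. In females they numbered 0, against 9 with DESeq2, 3 with no filter, 2 in a model of all 4 groups and 1 without the 3 libraries. For the interaction they numbered 2, against 7 with voom, 4 with DESeq2, 3 with no filter, 1 with the medulla covariate and 0 with the block, the strand columns or without the 3 libraries. For sex they numbered 4896, against 2398 with a 1.5-fold minimum, 1954 in NP mice, 2505 in LP mice and 2787 with the principal cell covariate. Agtr1b, with 8 counts, was too shallow to compare, and 3 NP females limit the female comparisons.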
